A study of Mus musculus with 6 samples.

Results

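The semaphorins, their plexin receptors and the neuropilin co-receptors were examined in the mouse palate at E13.5 of embryonic development, when the palatal shelves are still growing. Members were all probe sets whose single annotated gene symbol was a semaphorin of class 3 to 7, a plexin or a neuropilin, with no use of measured values. This rule took 78 of 45037 probe sets, covering 31 of 18193 genes: 20 semaphorins, 9 plexins and 2 neuropilins. Palates had been microdissected from Fz1-/-; Fz2+/+ embryos (Fz1-null here) and Fz1-/-; Fz2-/- embryos (double-null), and RNA of each sample was hybridised to an Affymetrix Mouse 430 2.0 array. There were 3 arrays per genotype, numbered 1 to 3 in both, and the number of arrays limits the precision. All samples were of a mixed C57BL6/129 background and of mixed gender, and all lacked Fz1 by genotype, so no wild-type palate was compared. The comparison asks what differs when Frizzled 2 is lost from a palate that already lacks Frizzled 1, both being receptors for Wnt ligands.

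Semaphorins are secreted or membrane-bound guidance proteins that share an extracellular sema domain. Plexins bind them and carry a GTPase-activating domain inside the cell, through which they change adhesion and the cytoskeleton. Most class 3 semaphorins, which are secreted, need a neuropilin beside a plexin A receptor, and neuropilins also join VEGF receptors on endothelium. In the embryonic face these proteins are known for steering nerves, vessels and neural crest cells.

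The targeted gene was checked first. On the log2 scale the brightest Fzd2 probe set averaged 11.57 ± 0.10 (SD, n = 3) over Fz1-null and 10.31 ± 0.19 (SD, n = 3) over double-null arrays, with a limma adjusted p of 0.217 without and 0.00889 with the replicate number as a block. Log2 values on the arrays ran from 2.83 to 14.7. Markers of palate mesenchyme were well measured, with Pdgfra at a mean log2 value of 12.10 and Twist1 at 10.64, and Shox2, an anterior palate gene, at 9.64. In bulk tissue, fewer cells of a type and less RNA per cell cannot be told apart.

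No semaphorin, plexin or neuropilin passed the test of a difference between the genotypes. With limma and Benjamini-Hochberg adjustment over all probe sets, 0 of 78 member probe sets passed an adjusted p of 0.05, beside 0% of all 45037. That fit did not call the targeted Fzd2 either (limma adjusted p = 0.217), so a count of 0 does not show that the members were unchanged. At an unadjusted p under 0.05 there were again 0 of 78, beside 0.957% of all probe sets, and the authors' deposited table also gave 0. With the replicate block 0 member probe sets passed after adjustment, beside 0.00666% of all, and 3 lay at an unadjusted p under 0.05, beside 4.71% of all. Those were probe sets of Sema3d, Sema3e and Sema5a, each lower in double-null palates, a direction in which 1.94% of all probe sets lay at that p. The 3 double-null arrays lay all below the 3 Fz1-null arrays in 3 of 78 member probe sets, beside 1.73% of all, and all above in 0, beside 2.79%. In either direction that is 3.85% of the members and 4.51% of all probe sets, so the share was near the background. The 3 without overlap belonged to Sema3d, Sema5a and Nrp1, and were named after their values were seen.

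All member differences were small. Reading each gene by its probe set with the highest mean, the log2 difference (double-null minus Fz1-null) ran from -0.19 for Sema3d to 0.09 for Sema3c, at most a 1.14-fold difference. For 30 of 31 genes the 95% interval of the difference lay inside 1.5-fold in both directions. The exception was Sema5a, whose interval ran from -0.60 to 0.33 on the log2 scale. Over all 78 probe sets the interval lay inside 1.5-fold for 76, the others being 2 probe sets of Sema5a. These intervals come from the fit without the replicate block. With the block the interval of Sema5a ran from -0.30 to 0.03, and those of all 31 genes and 78 probe sets lay inside 1.5-fold.

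**Figure D1:**
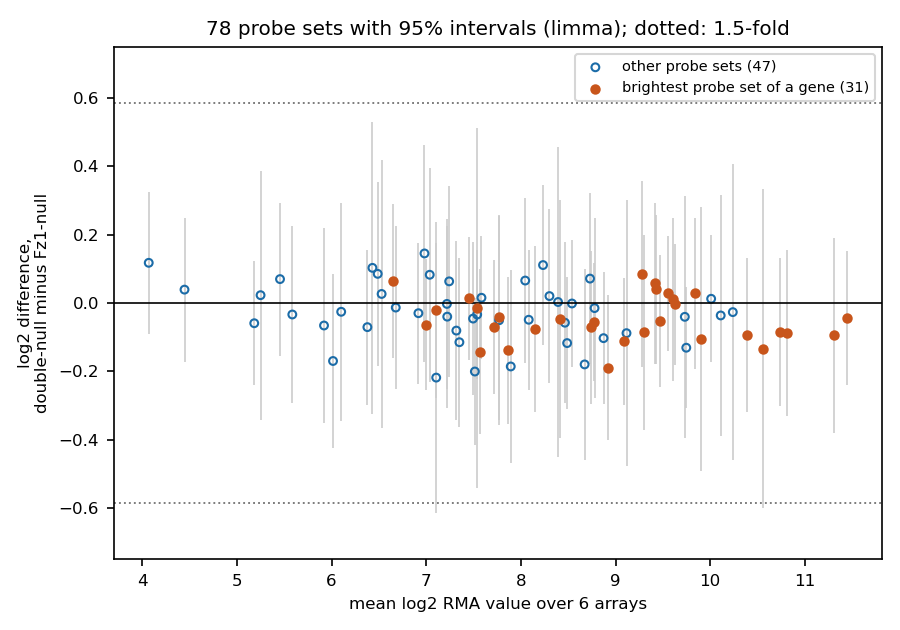
Log2 difference of each of the 78 member probe sets (vertical axis, double-null minus Fz1-null) against its mean log2 RMA value over 6 arrays (horizontal axis). Grey lines are 95% intervals from limma, without the replicate block, filled points mark the brightest probe set of each gene and dotted lines mark 1.5-fold; 76 of 78 intervals stay inside the dotted lines.

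More members lay lower than higher in double-null palates, by small amounts and most often in the pair of arrays numbered 1. Of the 31 genes, 23 had a lower mean (74.2%), beside 54.3% of all genes, and the median log2 difference was -0.06 for the members and -0.01 for all genes. Genes above the median value, to which 28 of the 31 belong, lay lower more often than dim genes. Among such genes 66.9% had a lower mean, with a median of -0.03, beside 75% and -0.06 for the 28 members. In pair 1, 27 of 31 members lay lower, beside 51.4% of all genes and 61.6% of genes above the median value. In pair 2 it was 20, beside 51.8% and 47.5%, and in pair 3 it was 15, beside 53.1% and 67.9%. The pair medians in pairs 1, 2 and 3 were -0.09, -0.02 and 0.003 over the members and -0.004, -0.004 and -0.01 over all genes. Over genes above the median value they were -0.03, 0.004 and -0.06, and over the 28 members among them -0.11, -0.01 and -0.008, so in pair 3 those members lay above that background. Leaving out pair 1 whole, an alternative chosen after seeing the data, gave a members' median of -0.04 with 21 of 31 lower, beside -0.02 and 62.2% for genes above the median value. Without pair 2 it was -0.06 with 21 lower, beside -0.04 and 70.5%, and without pair 3 it was -0.06 with 26 lower, beside -0.01 and 56.9%. With a single array left out the members' median was -0.007 with 17 genes lower without double-null array 1, -0.02 with 20 lower without Fz1-null array 3 and -0.04 with 23 lower without Fz1-null array 2. It was -0.04 with 22 lower without Fz1-null array 1, the same without double-null array 2, and -0.07 with 26 lower without double-null array 3. Leaving out 1 array of a pair also unbalances the numbers between the genotypes.

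Agreement over the 3 pairs gave a similar picture. In all 3 pairs 9 of 31 genes lay lower, beside 13.9% of all genes, and 1 of 31 lay higher, beside 11%. Of genes above the median value, 18.6% lay lower and 6.55% higher in all 3 pairs, and of the 28 members among them 28.6% and 3.57%. The 9 were Sema3a, Sema3d, Sema3f, Sema4a, Sema4d, Sema4f, Sema5a, Sema6d and Plxnd1, and the 1 was Sema6c. Of 25 member genes with more than 1 probe set, 12 were lower by every probe set and 2 were higher by every one, while 11 had probe sets on both sides. Over all such genes 28.2% were lower and 18.5% higher by every probe set, and in the family it was 48% and 8%. No gene's probe sets differed from each other by more than 0.19 in their log2 differences.

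**Figure D2:**
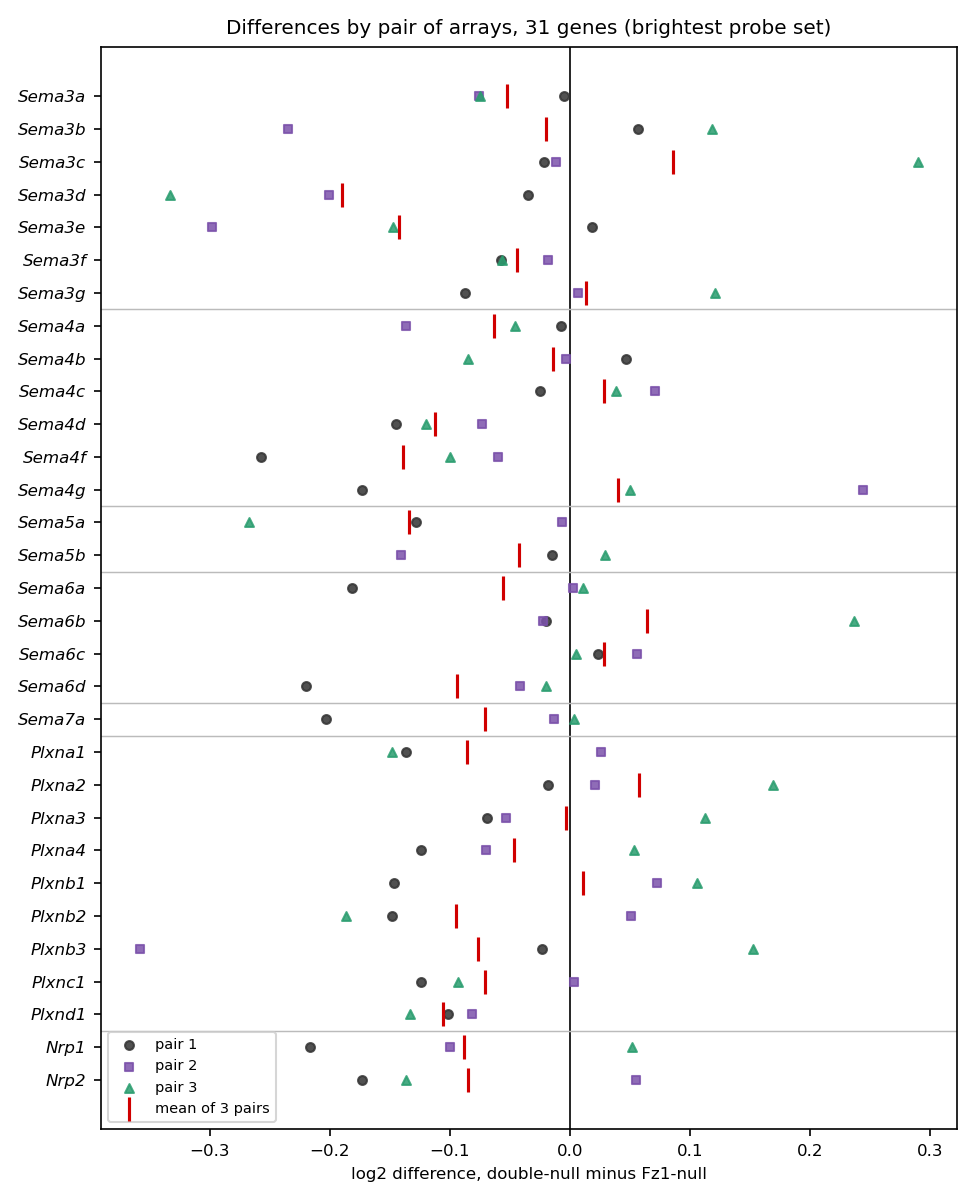
Log2 difference (double-null minus Fz1-null) of the 31 member genes in each pair of arrays of one number (circle, square and triangle) and as the mean of the 3 pairs (red bar), grouped by class from class 3 semaphorins at the top to neuropilins at the bottom. Most circles, for pair 1, lie left of 0, with 27 of 31 genes lower there, while pair 3 is split with 15 lower.

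Among the class 3 ligands, 5 of 7 genes had a lower and 2 a higher mean, with a median log2 difference of -0.04. Sema3d, a secreted guidance cue for axons, neural crest and endothelial cells, had the smallest unadjusted p among the brightest probe sets of the family (0.0736). Its log2 values were 8.94, 9.09 and 9.01 on Fz1-null arrays 1 to 3 and 8.91, 8.89 and 8.68 on double-null arrays 1 to 3. Every double-null value was below every Fz1-null value, narrowly so in pair 1. The mean difference was -0.19 (SE 0.09, limma adjusted p = 1.00, and 0.966 with the replicate block), with pair differences of -0.03, -0.20 and -0.33. It was -0.12 without double-null array 3. Its second probe set differed by -0.08 (SE 0.11). In pair 3, where Sema3d differed most, epithelial markers had a mean difference of -0.53 and skeletal muscle markers of 0.74, and their part in the result was not tested.

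Sema3e, which binds Plxnd1 directly without a neuropilin and repels endothelial cells, read 7.49, 7.65 and 7.76 on the Fz1-null arrays and 7.50, 7.35 and 7.61 on the double-null arrays. The groups overlapped, since double-null array 3 lay above Fz1-null array 1 and pair 1 showed almost no difference. The mean log2 difference was -0.14 (SE 0.10), and its other 3 probe sets differed by -0.20, -0.03 and -0.03. The first of these had an unadjusted p of 0.0635 without and 0.0245 with the replicate block (adjusted p = 0.966).

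The promoters of Sema3d and Sema3e are shown because these class 3 genes had the lowest differences among the secreted ligands by brightest probe set. Each is the 250 bases before a RefSeq start in build GRCm38.p6, on the plus strand, at chr5:12382916-12383165 for Sema3d and chr5:14025026-14025275 for Sema3e. Capitals mark matches on either strand to CTTTGA and CTTTGT. Both are related cores of HMG-box sites, including those of the Tcf/Lef factors that carry Wnt/beta-catenin signals. The searched motifs do not overlap each other here.
Sema3d: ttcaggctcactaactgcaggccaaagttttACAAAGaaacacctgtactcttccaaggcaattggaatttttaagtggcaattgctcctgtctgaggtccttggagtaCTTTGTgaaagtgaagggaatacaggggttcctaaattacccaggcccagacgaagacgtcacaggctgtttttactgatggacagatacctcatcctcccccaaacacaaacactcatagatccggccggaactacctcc
Sema3e: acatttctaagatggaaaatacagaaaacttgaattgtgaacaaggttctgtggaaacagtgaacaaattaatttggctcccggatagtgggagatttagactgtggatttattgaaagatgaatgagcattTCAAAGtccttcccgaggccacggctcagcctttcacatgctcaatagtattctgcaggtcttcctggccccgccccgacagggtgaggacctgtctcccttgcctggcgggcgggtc
Sema3d held 2 matches to CTTTGT and 0 to CTTTGA, and Sema3e held 1 match to CTTTGA and 0 to CTTTGT. Of 32851 promoters of this length, 13.8% held CTTTGA and 16.5% held CTTTGT. Of 37 promoters listed for 26 member genes, 2 (5.41%) held CTTTGA and 5 held CTTTGT. Such matches describe letters and are not binding sites. The same windows of Nrp1 and Sema5a, which like Sema3d had a probe set without overlap, held neither motif and were richer in G and C (64.4% and 72% against a median of 52.4% over all promoters). The Nrp1 window lies inside the listed range of the gene, and the Sema3d window ends just past the listed gene start.

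By their brightest probe sets the other class 3 ligands lay close to 0. Sema3a, the classical repellent of sensory and sympathetic axons that acts through Nrp1, differed by -0.05 (SE 0.08), or -0.005, -0.08 and -0.08 in pairs 1, 2 and 3. Further Sema3a probe sets differed by -0.01 (SE 0.11) and -0.17 (SE 0.11), and the dimmer one, at -0.17, lay lower in 3 of 3 pairs. Sema3f, a ligand of Nrp2, differed by -0.04 (SE 0.08) in a probe set that the array maker marks as able to match other transcripts, and by -0.04 and -0.06 in its others. Sema3c, which guides cardiac neural crest, had the highest difference among the brightest probe sets of the family at 0.09 (SE 0.12). That mean came from pair 3, at 0.29, beside -0.02 and -0.01 in the other pairs. The second Sema3c probe set differed by 0.07 (SE 0.10), at -0.02, 0.12 and 0.09 in pairs 1, 2 and 3. Sema3b differed by -0.02 (SE 0.11) and Sema3g, an endothelial ligand of Nrp2, by 0.01 (SE 0.08).

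Of the transmembrane class 4 ligands, 4 of 6 genes had a lower and 2 a higher mean, with a median log2 difference of -0.04. Sema4d, which signals through Plxnb1, read 9.12, 9.09 and 9.24 on Fz1-null arrays and 8.97, 9.02 and 9.12 on double-null arrays. It was lower in each pair by a similar amount (-0.14, -0.07 and -0.12), yet the groups overlapped, because arrays numbered 3 were the highest of both genotypes. Its mean difference was -0.11 (SE 0.08), and its other probe sets differed by -0.05 and 0.04.

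Sema4f, a class 4 member with roles in glia and neurons, read 8.08, 7.91 and 7.81 on Fz1-null arrays and 7.82, 7.85 and 7.71 on double-null arrays. The probe set lay lower in all 3 pairs, though the groups overlapped, with a mean difference of -0.14 (SE 0.09). The array maker marks it as able to match other transcripts, and the second Sema4f probe set differed by 0.02 (SE 0.08). Sema4a, known from immune cells and the retina, read 7.09, 7.01 and 6.98 on Fz1-null arrays and 7.08, 6.88 and 6.93 on double-null arrays. These groups overlapped, with a mean difference of -0.06 (SE 0.08). Sema4c, a ligand of Plxnb2, differed by 0.03 (SE 0.07), Sema4g by 0.04 (SE 0.09) and Sema4b by -0.01 (SE 0.23).

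Both class 5 ligands, whose extracellular part carries thrombospondin repeats, had lower means. Sema5a was lower by all 4 of its probe sets, with log2 differences of -0.13 (SE 0.20), -0.12 (SE 0.08), -0.22 (SE 0.17) and -0.06 (SE 0.08) from the brightest to the dimmest. The brightest read 10.27, 10.66 and 10.94 on Fz1-null arrays and 10.14, 10.65 and 10.67 on double-null arrays. Levels differed more between numbers than between genotypes, and pair 2 showed no visible difference (-0.007). The second probe set did not overlap between the genotypes, reading 8.52, 8.53 and 8.59 on Fz1-null arrays and 8.46, 8.52 and 8.31 on double-null arrays. The margin there was under 0.01 in log2 value between Fz1-null array 1 and double-null array 2. The third had an unadjusted p of 0.237 without and 0.0179 with the replicate block (adjusted p = 0.966). Sema5b differed by -0.04 (SE 0.13).

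The class 6 ligands, transmembrane proteins that bind plexin A receptors, were split, with 2 of 4 genes lower and 2 higher. Sema6d, a ligand of Plxna1, read 10.62, 10.32 and 10.38 on Fz1-null arrays and 10.40, 10.28 and 10.36 on double-null arrays. Its mean difference of -0.09 (SE 0.10) came mostly from pair 1, at -0.22, beside -0.04 and -0.02. Sema6a, a ligand of Plxna2 and Plxna4, read 8.85, 8.77 and 8.78 on Fz1-null arrays and 8.67, 8.77 and 8.79 on double-null arrays. Here too pair 1 (-0.18) made the mean difference of -0.06 (SE 0.07), and another of its probe sets differed by 0.11 (SE 0.10). Sema6b differed by 0.06 (SE 0.10), and Sema6c by 0.03 (SE 0.10), the 1 gene higher in all 3 pairs (0.02, 0.06 and 0.005).

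Sema7a, the membrane-anchored ligand that binds Plxnc1 and beta1 integrins, read 7.76, 7.71 and 7.79 on Fz1-null arrays and 7.55, 7.70 and 7.79 on double-null arrays. Double-null array 1 stood below the other 5 values, and the mean difference was -0.07 (SE 0.08). Its receptor Plxnc1 read 8.92, 8.63 and 8.79 on Fz1-null arrays and 8.80, 8.63 and 8.70 on double-null arrays, a mean difference of -0.07 (SE 0.10) with overlap. Of the 6 Plxnc1 probe sets 3 lay lower and 3 higher, from -0.07 to 0.12.

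Among all plexins, 7 of 9 genes had a lower and 2 a higher mean by the brightest probe set, with a median log2 difference of -0.07. Over all 22 plexin probe sets the lean was weaker, with 13 lower, 9 higher and a median of -0.02. Plxnb2, the receptor of class 4 ligands such as Sema4c, read 11.20, 11.37 and 11.50 on Fz1-null arrays and 11.05, 11.43 and 11.31 on double-null arrays. The groups overlapped and the mean difference was -0.09 (SE 0.12). Plxnd1, the Sema3e receptor known from endothelium, was lower by a near-constant amount in each pair (-0.10, -0.08 and -0.13), a mean of -0.11 (SE 0.17). That SE, from the fit without the replicate block, includes the spread between numbers. With the block the SE was 0.06 and the 95% interval ran from -0.25 to 0.04.

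Endothelial markers were read beside Plxnd1. Of 8 such genes 7 had a higher mean in double-null palates, and their mean log2 value ranged from 8.84 to 8.96 on Fz1-null and from 8.85 to 9.05 on double-null arrays. The pair means of these markers were -0.01, 0.22 and 0.02. No endothelial marker passed the test, the smallest unadjusted limma p being 0.0374. In 2 of 8 the groups did not overlap, with double-null arrays higher, beside 4.65% of all genes in either direction. The part of these markers in the Plxnd1 difference was not tested.

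The plexin A receptors, which work with neuropilins or bind class 6 ligands, differed in sign. Plxna1 lay at -0.09 (SE 0.12), Plxna2 at 0.06 (SE 0.10), Plxna3 at -0.003 (SE 0.08) and Plxna4 at -0.05 (SE 0.15). The other probe set of Plxna1 had the opposite sign, at 0.06 (SE 0.12), and that of Plxna4 lay at -0.03 (SE 0.09). Further Plxna2 probe sets differed by 0.07, -0.001 and 0.15. The sign of Plxna3 turned, to 0.03, with repeated quantile normalisation, and its second probe set differed by -0.18 (SE 0.12). Of the plexin B receptors, Plxnb1 differed by 0.01 (SE 0.10) and Plxnb3 by -0.08 (SE 0.10), with pair 2 of Plxnb3 at -0.36 and pair 3 at 0.15. The other probe set of each had the opposite sign, at -0.10 (SE 0.08) for Plxnb1 and 0.08 (SE 0.13) for Plxnb3.

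Both neuropilins had slightly lower means in double-null palates. Nrp1, which pairs with plexin A for Sema3a and with Kdr for VEGF, read 11.05, 10.77 and 10.73 on Fz1-null arrays and 10.83, 10.67 and 10.78 on double-null arrays. The groups overlapped and the mean difference was -0.09 (SE 0.10). All 4 of its probe sets lay lower, from -0.13 to -0.04, and in one of them the groups did not overlap. That probe set read 9.83, 9.82 and 9.79 on Fz1-null arrays and 9.59, 9.70 and 9.76 on double-null arrays, a difference of -0.13 (SE 0.08, unadjusted p = 0.126). Nrp2, the co-receptor of Sema3f, read 10.74, 10.81 and 10.79 on Fz1-null arrays and 10.56, 10.86 and 10.65 on double-null arrays. Its mean difference was -0.09 (SE 0.09), and double-null array 2 held the highest of the 6 values. The difference was -0.17 without that array and -0.02 without double-null array 1.

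**Figure D3:**
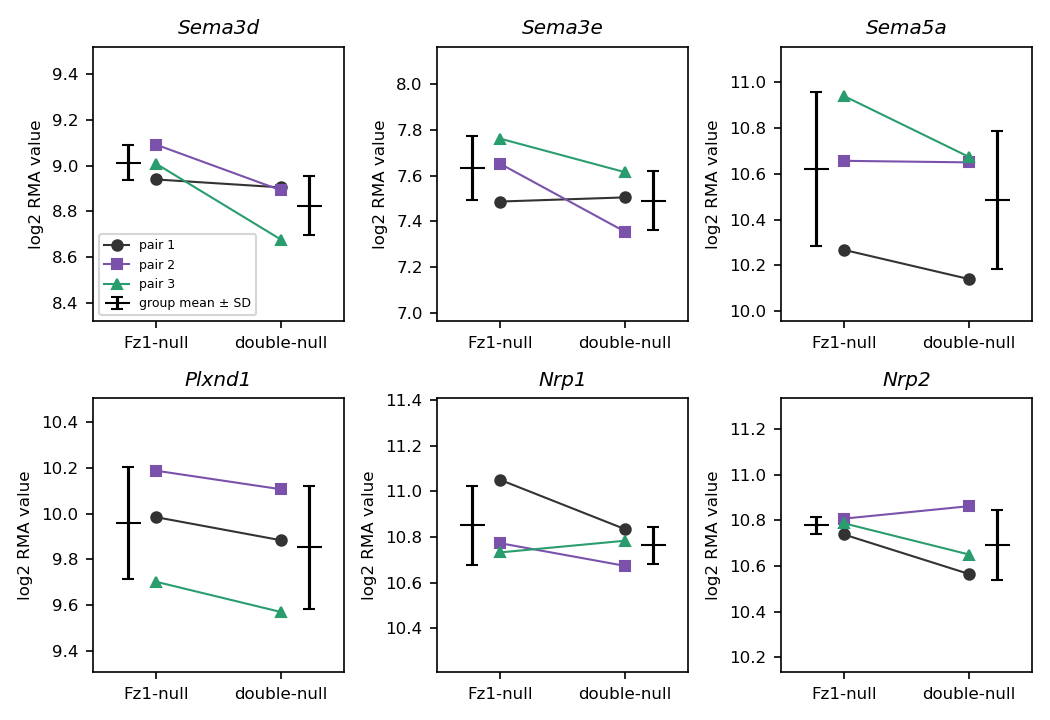
Log2 RMA value of 6 genes on every array, by genotype, with a line joining the 2 arrays of each number and the group mean ± SD (n = 3) beside the points; every panel spans 1.2 log2 units. Sema3d shows no overlap between the genotypes, and in Sema5a and Plxnd1 the lines lie apart by number and slope little.

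The levels of the members were also read by replicate number. For 29 of 31 genes the range of the 3 pair means was larger than the genotype difference, with Sema3d and Sema6a as the exceptions. This is the background too, since it held for 89.6% of all genes and 93% of genes above the median value. A range over 3 pair means tends to exceed a difference of the group means even with no replicate effect. The count alone therefore does not weigh number against genotype. The largest range was that of Sema4b, at 0.68, with pair means of 7.79, 7.69 and 7.12 beside a genotype difference of -0.01. Sema5a followed at 0.60 (10.20, 10.65 and 10.81) and Plxnd1 at 0.51 (9.93, 10.15 and 9.64), and both genotypes shared the order of the numbers. Plxna4, Sema5b and Plxna1 had ranges of 0.44, 0.36 and 0.33. These genes were picked for their range after their values were seen. What a number shares is not stated in the labels.

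**Figure D4:**
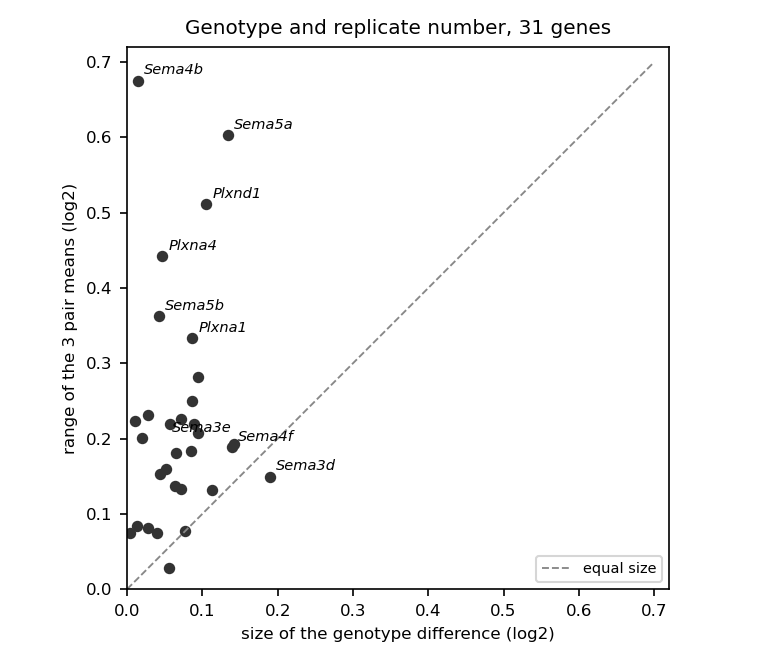
Range of the 3 pair means (vertical axis, log2) against the size of the genotype difference (horizontal axis, log2) for the 31 member genes, with a dashed line at equal size. All points but Sema3d and Sema6a lie above the line, led by Sema4b at 0.68, Sema5a at 0.60 and Plxnd1 at 0.51.

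The rest of the pathway was read from lists of co-receptors, VEGF partners, GTPase regulators and cytoskeletal effectors. No gene of these lists passed the test in either direction, with or without the block. Among 15 co-receptors and other semaphorin-binding receptors 6 had a higher and 9 a lower mean, with a median of -0.02. Met, the hepatocyte growth factor receptor that associates with plexin B, differed by -0.32 (SE 0.13, unadjusted p = 0.0383, limma adjusted p = 1.00) and lay lower in 3 of 3 pairs without overlap. Itga1 differed by 0.14 (SE 0.07) and lay higher in 3 of 3 pairs without overlap. Genes without overlap made up 13.3% of this list, beside 4.65% of all genes. Nrcam, an adhesion molecule that partners neuropilins, differed by 0.22 (SE 0.10), and Cd72, a receptor for Sema4d, by 0.19 (SE 0.10). Epithelial markers were lower in 9 of 9 genes with a median of -0.21, their mean log2 value ranging from 9.28 to 9.56 on Fz1-null and from 9.03 to 9.43 on double-null arrays. In pairs 1, 2 and 3 these markers had mean differences of 0.03, -0.13 and -0.53, and Met differed by -0.38, -0.36 and -0.22. The part of these markers in the Met difference was not tested.

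VEGF ligands and receptors, which share the neuropilins with class 3 semaphorins, had a higher mean in 7 of 8 genes, with a median log2 difference of 0.10. Vegfa differed by 0.11 (SE 0.08), Flt4, the receptor of lymphatic endothelium, by 0.12 (SE 0.10), and Kdr by 0.16 (SE 0.16), each at a limma adjusted p of 1.00. The endothelial markers named above, which include Kdr, lay on the same side.

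Downstream of plexins, 17 of 21 GTPases, their regulators and plexin-bound enzymes had a lower mean and 4 a higher one, with a median of -0.04. Farp2, an exchange factor that Sema3a signalling activates through plexin A, differed by -0.23 (SE 0.11), Sh3bp1, a Rac regulator bound to Plxnd1, by -0.10 (SE 0.08), and the flavoprotein oxidase Mical3 by -0.11 (SE 0.08). Among kinases and cytoskeletal effectors 14 of 18 were lower and 4 higher, with a median of -0.04. Pak3, a Rac-driven kinase, differed by 0.21 (SE 0.14), and the cofilin kinases Limk1 and Limk2 by -0.13 (SE 0.13) and -0.09 (SE 0.10). Of other guidance families, 11 of 18 Slit, Robo, netrin, Unc5 and related genes were lower (61.1%), with a median of -0.02. Robo2 differed by -0.15 (SE 0.09), Ntn4 by 0.11 (SE 0.09) and Robo1 by -0.13 (SE 0.12). Beside these counts, 66.9% of all genes above the median value had a lower mean.

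The family's mean log2 difference was -0.09, -0.04 and -0.01 in pairs 1, 2 and 3. Palate mesenchyme markers, those of the main tissue, had a lower mean in 8 of 10 genes with a median of -0.06, and pair means of 0.03, -0.09 and -0.21. The groups did not overlap in 2 of them (20%), both lower, beside 4.65% of all genes in either direction. These were Prrx2 and Osr2, transcription factors of the palatal mesenchyme, named after their values were seen. They differed by -0.22 (SE 0.08) and -0.27 (SE 0.14) and did not pass the test. Differences of the 10 mesenchyme genes ran from -0.37 to 0.31, and 2 of the 10 had a higher mean. Neuronal markers, listed because neurons make many semaphorins and plexins, stood at -0.31, -0.07 and 0.20, with 7 of 9 lower by mean. Their mean log2 value ranged from 10.02 to 10.70 on Fz1-null and from 9.96 to 10.59 on double-null arrays. Bone-forming markers stood at -0.44, -1.51 and -0.18, with 4 of 4 lower. The pair 2 mean there rests on Ibsp, a bone matrix protein, at -4.46, and the median of the 4 genes in that pair was -0.56. Skeletal muscle markers stood at -0.14, -0.22 and 0.74, with 9 of 9 higher by mean. Their part in the family's pair differences was not tested.

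**Figure D5:**
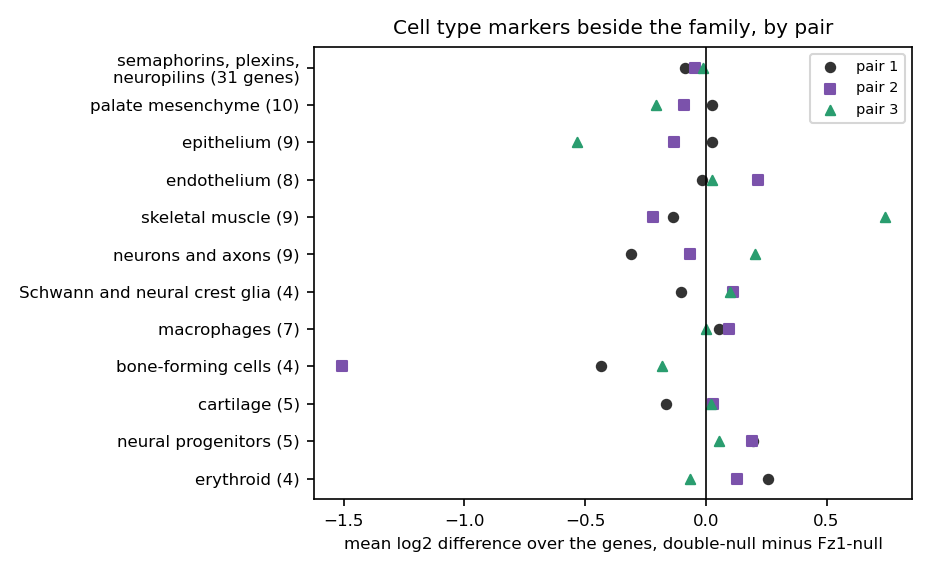
Mean log2 difference (double-null minus Fz1-null) in each pair of arrays over the 31 member genes, at the top, and over the genes of each cell type marker list, with the number of genes in brackets. The family's points lie between -0.09 and -0.01, while bone-forming markers reach -1.51 in pair 2, where Ibsp lies at -4.46, and skeletal muscle markers 0.74 in pair 3.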

How the data were processed

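The authors deposited log2 values per probe set, computed with RMA per the submitters' processing notes, with its version not given in the sources used here. A second file, the authors' deposited table, holds a log2 fold change, a signed fold score and an unadjusted p-value per probe set, per the file headers. Its fold change equals the difference of group means with the sign turned (largest gap 4.93e-08). After leaving out 64 controls, 45037 probe sets were fitted in limma 3.58.1 (R 4.3.3) on all 6 arrays with genotype as the term, two-sided, with Benjamini-Hochberg adjustment over all. The fit was tested on simulated data under a pair of variance models: without the block no false call was made, while with the block false calls exceeded the nominal rate, by more where variances were the fitted posterior ones, so blocked p-values may be too small and blocked intervals too narrow. Names came from the platform annotation, updated to RefSeq by Entrez identifier (34945 probe sets with 1 symbol, 932 with several, 9160 unnamed). Listed genes with no single-symbol probe set were not analysed here, and only promoters carry RefSeq positions. RMA makes no presence calls and hides shifts shared by most transcripts. The labels name no embryo or litter, so p-values reflect only the spread among these 6 samples, part of which may be technical. Same-numbered arrays deviated together (r = 0.629, 0.439 and 0.63), so pairing by number rests on the data, and the block was run as an alternative. An exact permutation test of 3 against 3 cannot go below 0.1. Named were all members, with values on every array for Nrp1, Nrp2 and the 10 others with the smallest p, and, outside this rule and chosen after their values were seen, for Sema5a and further probe sets without overlap, and 3 genes of each pathway list by smallest p. Itga1, Prrx2, Osr2 and Ibsp were also named outside this rule, after their values were seen. Members and lists were chosen with earlier results of these data known. Alternatives were a filter on dim probe sets, an intensity trend, other scalings, a pseudocount of 32, single arrays left out, gene means over probe sets, a looser threshold of 0.1 and the deposited p-values.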

Additional observations from a re-analysis of the deposited data

How the results depend on the processing

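No member probe set passed an adjusted p of 0.05 under any alternative run: the replicate block (also without each pair of arrays, an alternative chosen after seeing the data), the filter, the trend, the scalings, the pseudocount, leaving out each array, a threshold of 0.1 and the deposited p-values. At an unadjusted p under 0.05 the count was 0, and it became 3 with the replicate block, 1 with repeated quantile normalisation and 1 with centring on array medians. It was 0 to 1 when an array was left out, and with the block 5, 9 and 2 without pair 1, 2 and 3 (range 2 to 9). The count without overlap was 3, and 1 with repeated quantile normalisation. It was 6 to 11 with an array left out, where 2 against 3 arrays overlap less often by construction. The members' median ran from -0.072 to -0.0071 with an array left out, the latter without double-null array 1. The block changed no call. The members' median was -0.041, -0.057 and -0.061 without pair 1, 2 and 3. The block, the trend and the filter leave a gene's difference as it is. Of 310 gene differences under the other alternatives, 266 kept their sign. Signs turned with the mean of all probe sets for Plxnb1 (-0.046), Plxnb3 (0.0033), Plxnc1 (0.020), Sema3b (0.0099) and Sema6a (0.0016), and with repeated quantile normalisation for Plxna3 (0.033). With an array left out, values ran -0.15 to 0.011 for Nrp1, -0.16 to 0.013 for Plxna1, -0.011 to 0.14 for Plxna2, -0.053 to 0.030 for Plxna3, -0.19 to 0.063 for Plxna4. They ran -0.072 to 0.10 for Plxnb1, -0.18 to 0.012 for Plxnb2, -0.15 to 0.011 for Plxnb3, -0.23 to 0.037 for Plxnd1, -0.12 to 0.067 for Sema3b. Further ranges were -0.012 to 0.19 for Sema3c, -0.091 to 0.0098 for Sema3f, -0.017 to 0.058 for Sema3g, -0.20 to 0.21 for Sema4b, -0.0016 to 0.047 for Sema4c, and -0.026 to 0.10 for Sema4g, -0.31 to 0.040 for Sema5a, -0.15 to 0.047 for Sema5b, -0.020 to 0.14 for Sema6b, -0.036 to 0.092 for Sema6c. The sign of 9 of 31 genes held throughout, though sizes moved. With an array left out these ran -0.17 to -0.021 for Nrp2, -0.090 to -0.0024 for Sema3a, -0.23 to -0.12 for Sema3d, -0.22 to -0.074 for Sema3e, -0.12 to -0.020 for Sema4a, -0.15 to -0.068 for Sema4d, -0.20 to -0.065 for Sema4f, -0.15 to -0.0043 for Sema6d and -0.13 to -0.0071 for Sema7a. Plxnc1 and Sema6a ran -0.15 to -0.0014 and -0.081 to -0.019. The cause of these turns was not tested. Slide and background correction could not be varied from RMA values.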
